A study of Mus musculus with 4 samples.

Results

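The genes described here are 9 nuclear genes for mitochondrial aminoacyl-tRNA synthetases (Lars2, Iars2, Vars2, Mars2, Fars2, Nars2, Tars2, Ears2 and Sars2), out of 54532 genes in the count files. The list was chosen by the counts of Lars2, which were higher in Zbp1-deficient than in wild-type kidney, and the question was whether its relatives followed. Because the same contrast chose Lars2, its values are given as a description. It stayed in the fit over all genes, but nothing is read from its test, and among the 9 only the tests of the 8 relatives are read. Whole-kidney poly(A) RNA was sequenced from 2 wild-type (WT) and 2 Zbp1-/- (Zbp1-KO) libraries, all from mice given 500 μL pristane into the peritoneum at 8 weeks of age and killed 8 months later. Pristane, a mineral oil component, induces lupus-like autoimmunity, and no uninjected mice were analysed here. Per the study, the WT and Zbp1-KO mice of this model were female and on a C57BL/6J background. The Zbp1-KO mice carried a CRISPR-Cas9 deletion of Zbp1 exons 2 to 8, in every cell type. Neither the labels nor the files say whether the libraries of a genotype came from separate mice, so the p-values measure only the spread between these libraries.

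Aminoacyl-tRNA synthetases attach each amino acid to its matching tRNA, the step that fixes the genetic code. Mitochondria translate the few respiratory-chain proteins encoded by their own genome with a separate set of these enzymes, encoded in the nucleus, translated in the cytosol and imported. Most amino acids therefore have a cytosolic and a mitochondrial synthetase made from different genes, while a few genes serve both compartments. Kidney tubules are rich in mitochondria, and inherited loss of SARS2, the seryl enzyme, is known for kidney failure with high uric acid, while inherited loss of LARS2 is known for hearing loss and ovarian failure.

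The libraries held 9878776 to 12921925 counted reads, of which 49.5% to 61.5% came from genes of the mitochondrial genome, leaving 4003417 to 5782924 reads for nuclear genes. Zbp1, the targeted gene, had 94 and 125 counts for WT, against 18 and 0 counts for Zbp1-KO, a log2 fold change of −3.64 ± 0.89 (SE), with an adjusted p of 0.999 by edgeR's quasi-likelihood test. The gene totals do not show which exons the 18 reads came from. Defining kidney markers were present in every library, with a summed level of 987 to 1555 CPM (counts scaled to library size, with TMM factors) for 6 proximal tubule genes, lowest in Zbp1-KO 1. Markers of fat, a tissue that borders the kidney, moved with genotype. Besides Lars2, the only gene with an adjusted p under 0.05 over all genes was the fat marker Cfd (0.00889 by edgeR's quasi-likelihood test). The 6 of 7 fat markers that could be tested were each higher in both Zbp1-KO than in both WT libraries (16.0% of all genes were), with a summed level of 86.0 and 119.7 CPM for WT, against 260.1 and 232.6 CPM for Zbp1-KO, and Lep had no reads in any library. The 4 T cell markers had few reads, in sum 80 and 13 counts for WT, against 132 and 74 counts for Zbp1-KO. Their summed level was 6.43 and 1.11 CPM for WT, against 9.73 and 7.97 CPM for Zbp1-KO. That of 3 macrophage markers was 55.3 and 36.1 CPM for WT, against 63.3 and 54.3 CPM for Zbp1-KO, and so overlapped narrowly. Taken singly, 1 of the 3 T cell markers tested and 2 of the 3 macrophage markers were higher in both Zbp1-KO than in both WT libraries. The 3 collecting duct markers were lower in both Zbp1-KO than in both WT libraries (16.3% of all genes were), with Aqp2 at 903 and 1061 CPM for WT, against 730 and 530 CPM for Zbp1-KO, and Aqp3 at 71.4 and 74.4 CPM, against 59.1 and 37.9 CPM. The part of these differences in the results below was not tested, and in whole tissue fewer cells of a type and less RNA per cell cannot be told apart.

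Lars2, the mitochondrial leucyl-tRNA synthetase (ENSMUSG00000035202, chr9:123366927-123462666, plus strand, GRCm38), had 4188 counts in WT 1, 3636 in WT 2, 11666 in Zbp1-KO 1 and 9776 in Zbp1-KO 2. Its levels were 336.8, 311.0, 860.2 and 1053 CPM in the same order. Both Zbp1-KO libraries thus lay above both WT libraries, and the fitted difference was 2.95-fold (log2 fold change 1.56 ± 0.19 SE, 95% interval 1.15 to 1.97). The level differed by 1.08-fold between the WT libraries and by 1.22-fold between the Zbp1-KO libraries. Among the 9 listed genes, the share of summed CPM taken by Lars2 was 71.6% in WT and 88.2% in Zbp1-KO.

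**Figure D1:**
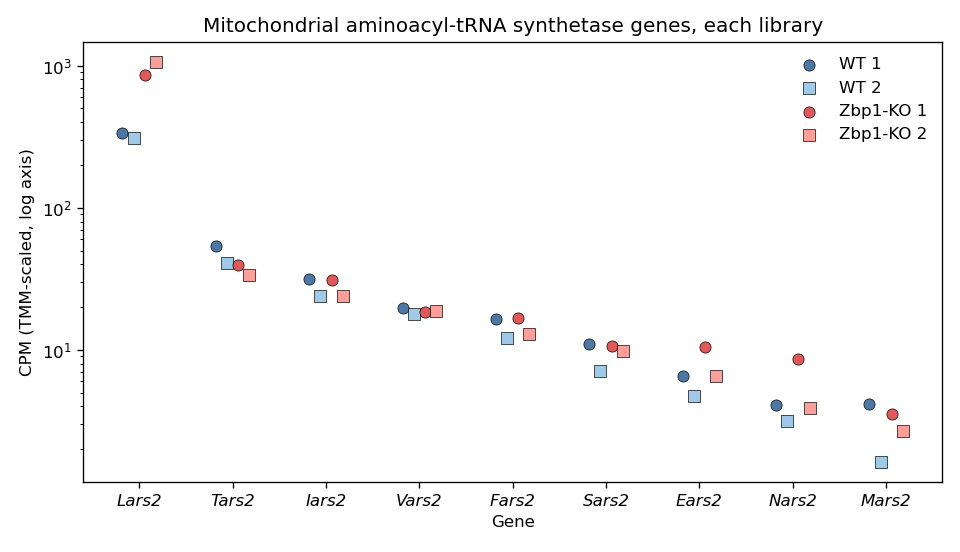
Level of the 9 mitochondrial synthetase genes in each library, in TMM-scaled CPM on a log axis, with WT libraries in blue and Zbp1-KO libraries in red and no averaging. Lars2 stands above every relative in each library and its Zbp1-KO points (860.2 and 1053 CPM) stand above its WT points (336.8 and 311.0 CPM), while the points of the relatives overlap between genotypes except for Tars2.

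Among the 9 listed genes, 1 passed an adjusted p under 0.05 over all 14908 genes tested, where 0.0134% of genes passed; that gene was Lars2, which had been chosen for it, so nothing is read from the count. None of the 8 relatives passed, with edgeR's quasi-likelihood test, its exact test or DESeq2, and 0 of 8 had an unadjusted quasi-likelihood p under 0.05, against 3.88% of all genes (1.91% on the higher side and 1.97% on the lower side in Zbp1-KO). The median log2 fold change of the 8 relatives was 0.08 (range −0.36 to 0.79), beside −0.01 over all genes tested. It turned to −0.13 without WT 2 and −0.07 without Zbp1-KO 1, and was 0.40 without WT 1 and 0.22 without Zbp1-KO 2. Fold changes were above 0 for 5 relatives (49.4% of all genes) and below 0 for 3, and for all 8 the 2 libraries of at least 1 genotype differed by a larger fold than the genotypes did. Both Zbp1-KO libraries were above both WT libraries for 0 of the 8 (16.0% of all genes) and below them for 1, Tars2 (16.3% of all genes), so that 7 of the 8 overlapped, while 32.3% of all genes did not overlap in either direction.

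The intervals say how far the relatives could have followed. All 8 of the 95% intervals held 0, and 5 of them, those of Iars2, Vars2, Fars2, Tars2 and Sars2, ended below a doubling. They thus also ended below the interval of Lars2 (1.15 to 1.97 on the log2 scale), the gene that chose the list. That comparison is a description and not a test, since the same contrast chose Lars2. The intervals of Mars2, Nars2 and Ears2 held a doubling, and they belong to the relatives with the fewest reads. Summed over the 8 relatives, the level was 147.3 and 111.4 CPM for WT, against 139.2 and 112.0 CPM for Zbp1-KO. The libraries of the 2 genotypes thus interleaved in the sum. WT 1 was the highest library for 5 relatives and Zbp1-KO 1 for the other 3, so that the spread ran between libraries of the same genotype. Lars2 itself was highest in Zbp1-KO 2. The reads of Lars2 over the summed reads of the 8 relatives were 2.29 and 2.79 in WT and 6.18 and 9.40 in Zbp1-KO.

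Iars2, Vars2, Mars2 and Ears2 are, like Lars2, class I synthetases, whose catalytic core is a Rossmann fold. Iars2 charges isoleucine, and its levels of 31.7 and 24.1 CPM for WT, against 30.8 and 23.8 CPM for Zbp1-KO interleaved (log2 fold change −0.03 ± 0.25 SE). Vars2, for valine, stood at 19.8, 17.8, 18.5 and 18.6 CPM in WT 1, WT 2, Zbp1-KO 1 and Zbp1-KO 2, the narrowest spread of the 9 genes in Zbp1-KO, with a log2 fold change of −0.02 ± 0.25. These enzymes for branched-chain amino acids are the closest in chemistry to the leucyl enzyme, and the upper ends of their intervals were 0.51 and 0.53 on the log2 scale. Mars2, for methionine, had only 52 and 19 counts for WT, against 48 and 25 counts for Zbp1-KO, and its log2 fold change of 0.10 ± 0.73 had an interval from −1.48 to 1.69, too wide to exclude a doubling or a halving at this depth.

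Ears2 charges glutamate and also misacylates the glutamine tRNA, whose cargo is then converted by an amidotransferase. It had 6.59 and 4.70 CPM for WT, against 10.5 and 6.57 CPM for Zbp1-KO. Zbp1-KO 2 lay inside the WT range, so that its log2 fold change of 0.60 ± 0.44 came mostly from Zbp1-KO 1 and was 0.21 without that library. The amidotransferase genes Qrsl1, Gatb and Gatc were read with Mtfmt, which formylates the initiator methionyl-tRNA. Of these 4, 0 were called by each of the 3 tests and 0 had an unadjusted p under 0.05. By the quasi-likelihood test, 0.0134% of all genes were called and 3.88% had such a p. Log2 fold changes of the 4 ran from −0.18 (Mtfmt) to 0.19 (Gatb).

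Fars2, Nars2, Tars2 and Sars2 are class II synthetases, which share a different, antiparallel-sheet core. Tars2, for threonine, was the most abundant relative and had 53.6 and 40.7 CPM for WT, against 39.8 and 33.6 CPM for Zbp1-KO. It was the relative whose genotypes did not overlap, although the WT 2 and Zbp1-KO 1 values nearly met, and its log2 fold change of −0.36 ± 0.22 (interval −0.84 to 0.12) had an adjusted p of 0.999 by edgeR. Its direction was opposite to that of Lars2, and the Lars2-to-Tars2 read ratio was 6.29 and 7.64 in WT and 21.6 and 31.3 in Zbp1-KO.

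Nars2, for asparagine, showed the largest fold change among the relatives, 0.79 ± 0.56, with 4.10 and 3.16 CPM for WT, against 8.63 and 3.88 CPM for Zbp1-KO. Zbp1-KO 1 stood apart from the other 3 libraries, and without it the log2 fold change was 0.09. Fars2, for phenylalanine, measured 16.5, 12.1, 16.7 and 13.0 CPM in WT 1, WT 2, Zbp1-KO 1 and Zbp1-KO 2, with the genotypes interleaved (0.06 ± 0.30). Sars2, the seryl enzyme tied to inherited kidney disease, stood at 10.9 and 7.10 CPM for WT, against 10.6 and 9.80 CPM for Zbp1-KO (0.18 ± 0.36), with both Zbp1-KO values inside the WT range.

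Per kilobase of merged annotated exon, Lars2 led the list in every library, at 30.4 and 28.0 CPM per kb in WT and 77.6 and 95 CPM per kb in Zbp1-KO. Tars2 followed at 7.73 and 5.87 CPM per kb in WT. Lars2 was thus 4.30-fold above Tars2 in WT and 16.3-fold above it in Zbp1-KO. Vars2, Iars2, Sars2 and Fars2 came next with WT means of 3.44, 3.14, 2.72 and 2.49 CPM per kb, and neighbours in that order overlapped between libraries. Ears2 (1.10), Nars2 (0.52) and Mars2 (0.26) were lowest. Mars2 and Lars2 have the longest merged exons, 11294 and 11089 bases, and with the longest coding transcript as length the excess of Lars2 over Tars2 in WT was 5.70-fold. The order of the middle genes turned on that choice, since with the longest coding transcript the WT means were 6.74 for Fars2, 5.10 for Iars2, 4.83 for Sars2 and 4.25 CPM per kb for Vars2.

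The 8 mitochondrial synthetases outside the list were measured in the same way. None of the 8 was called by any of the 3 tests or had an unadjusted p under 0.05. By the quasi-likelihood test, 0.0134% of all genes were called and 3.88% had such a p, so nothing is read from the count. The median log2 fold change of the 8 was −0.03, from −0.58 (Cars2) to 0.56 (Wars2). Hars2, for histidine, had both Zbp1-KO libraries above both WT libraries (24.0 and 22.3 CPM for WT, against 29.6 and 26.7 CPM for Zbp1-KO). It was the only 1 of the 8 to do so (16.0% of all genes), whereas 2, Aars2, for alanine, and Cars2, for cysteine, had both below (16.3% of all genes). Cars2 had 20.7 and 16.7 CPM for WT, against 13.4 and 11.6 CPM for Zbp1-KO, an unadjusted p of 0.0643 and an adjusted p of 0.999 by edgeR. Of the 16 mitochondrial synthetases other than Lars2, 13 had a 95% interval that ended below the point estimate of Lars2 (1.56). That estimate and the interval around it belong to the gene that chose the list, so the count and the next comparison are descriptions. The upper ends for Rars2 (1.20), Pars2 (1.43) and Wars2 (1.52) still lay inside the interval of Lars2, 1.15 to 1.97. The genes that serve both compartments, Gars (glycine) and Kars (lysine), had log2 fold changes of −0.10 ± 0.22 and 0.26 ± 0.20.

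**Figure D2:**
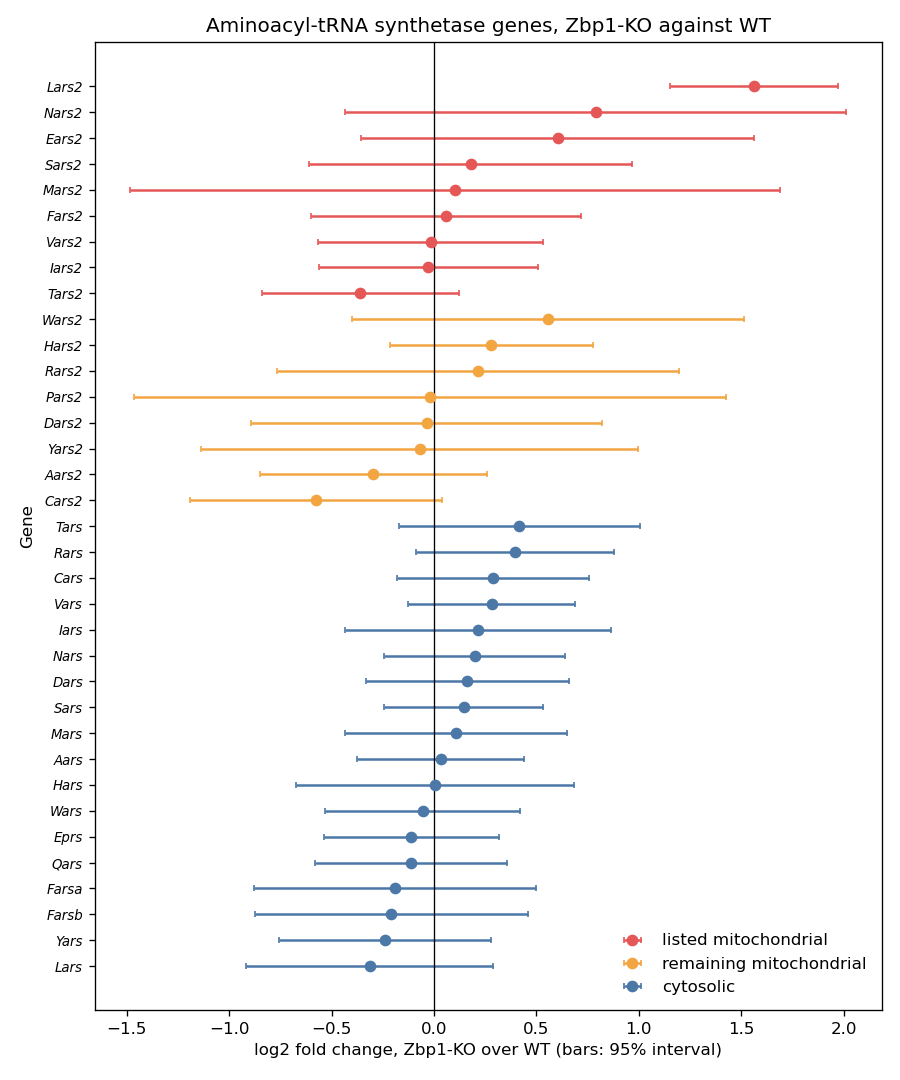
Log2 fold change, Zbp1-KO over WT, for 9 listed mitochondrial (red), 8 remaining mitochondrial (orange) and 18 cytosolic (blue) synthetase genes, with 95% intervals from the fit over all genes. Apart from Lars2, at 1.56, every interval holds 0, and the widest belong to genes with few reads such as Mars2.

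The cytosolic synthetases charge the tRNAs used for all other proteins, and each member has a partner for the same amino acid among them. None of the 18 cytosolic genes was called by any of the 3 tests or had an unadjusted p under 0.05. As 0.0134% of all genes were called by the quasi-likelihood test and 3.88% had such a p, nothing is read from the count. The median log2 fold change of the 18 was 0.07 (−0.31 to 0.42). Both Zbp1-KO libraries lay above both WT libraries for 6 of the 18 (Vars, Nars, Tars, Sars, Cars and Rars) and below for 1 (Eprs), where the shares over all genes were 16.0% and 16.3%. The lowest and the highest of the 18 are partners of listed genes, Lars (leucine) and Tars (threonine), and both differed in sign from the mitochondrial gene of that amino acid. Lars had 23.6 and 26.1 CPM for WT, against 15.3 and 24.9 CPM for Zbp1-KO (−0.31 ± 0.28), so its genotypes overlapped. Tars had 13.0 and 15.9 CPM for WT, against 18.2 and 20.5 CPM for Zbp1-KO (0.42 ± 0.27).

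The reads of each mitochondrial synthetase were also set against those of its cytosolic partner. Reads of Lars2 per read of Lars were 14.3 and 11.9 in WT and 56.4 and 42.3 in Zbp1-KO, which carries the Lars2 difference that chose the list. Reads of Tars2 per read of Tars were 4.11 and 2.56 in WT and 2.19 and 1.64 in Zbp1-KO, below the WT range in both libraries. Iars2 over Iars (2.32 and 1.96 against 1.79 and 1.84) and Vars2 over Vars (0.372 and 0.310 against 0.270 and 0.282) were also lower in both Zbp1-KO libraries. For Ears2 over Eprs (0.147 and 0.107 against 0.261 and 0.156) both were higher. The remaining pairs, Mars2 over Mars, Fars2 over Farsa, Nars2 over Nars and Sars2 over Sars, overlapped between genotypes. With 2 libraries against 2, an exact two-sided permutation test cannot give a p below 0.333, so no ratio was tested. Genotypes that do not overlap are common at this size, since 32.3% of all genes did not overlap in level.

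**Figure D3:**
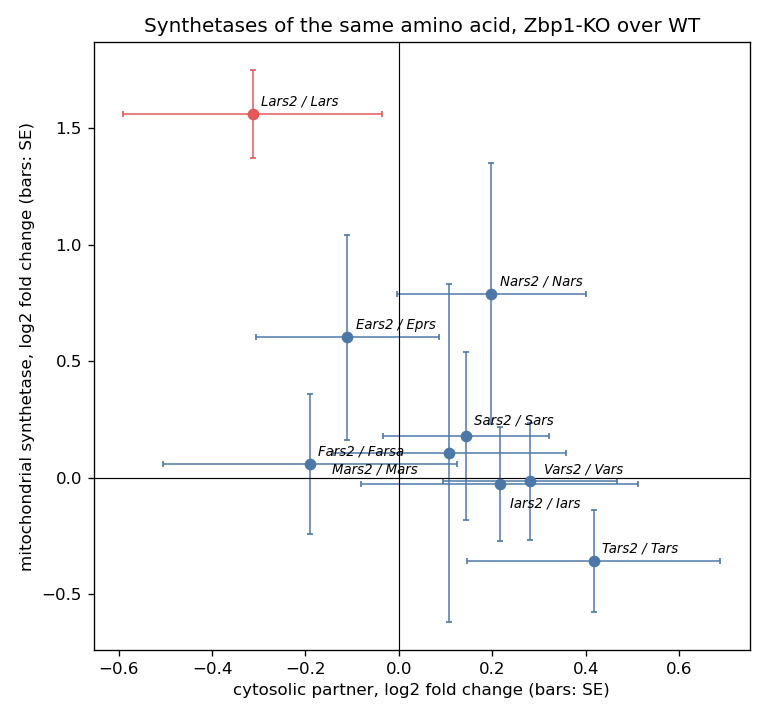
Log2 fold change, Zbp1-KO over WT, of each listed mitochondrial synthetase (vertical axis) against the cytosolic synthetase of the same amino acid (horizontal axis), with bars for the SE of each gene. Lars2 over Lars (1.56 and −0.31) lies apart from the other pairs, and Tars2 over Tars (−0.36 and 0.42) is at the opposite corner.

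The genes that act before and after the synthetases were read from lists that share no gene with them. Of 20 genes that cut, complete or modify mitochondrial tRNAs, 0 were called by each of the 3 tests and 0 had an unadjusted p under 0.05. Beside them, 0.0134% of all genes were called by the quasi-likelihood test and 3.88% had such a p. The 2 largest fold changes in each direction were those of Cdk5rap1 (−0.79 ± 0.59) and Trmu (−0.68 ± 0.31), which modify bases in and near the anticodon, and of Trmt5 (0.70 ± 0.56), a tRNA methyltransferase, and Trnt1 (0.53 ± 0.33), which adds the CCA end to which the amino acid is attached. Trmu had 15.5 and 13.5 CPM for WT, against 8.41 and 9.80 CPM for Zbp1-KO, so both Zbp1-KO libraries were below both WT libraries. That held for 7 of the 20 genes (16.3% of all genes), and both Zbp1-KO libraries were above both WT libraries for 4 (16.0% of all genes).

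Of 15 mitochondrial translation factors and related genes, 0 were called by each of the 3 tests and 1 had an unadjusted p under 0.05, beside 3.88% of all genes. That gene was Mtrf1, a release factor, with 51 and 54 counts for WT, against 20 and 10 counts for Zbp1-KO (log2 fold change −1.75 ± 0.73, unadjusted p 0.0331 and adjusted p 0.999 by edgeR). Tufm, the elongation factor that delivers charged tRNAs to the mitochondrial ribosome, had 34.8 and 35.1 CPM for WT, against 46.5 and 46.5 CPM for Zbp1-KO (0.41 ± 0.20), close replicates whose interval still reached −0.02. Tsfm, its nucleotide exchange factor, had a log2 fold change of −0.45 ± 0.40 and the initiation factor Mtif3 one of 0.32 ± 0.35.

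Uncharged tRNA and mitochondrial translation faults are known to engage the integrated stress response through Atf4, which also activates cytosolic synthetase genes. Of 21 genes of that response, 18 were tested and 0 were called by the quasi-likelihood test or DESeq2, while edgeR's exact test called Gdf15. Atf4 itself had 87.1 and 97.8 CPM for WT, against 86.2 and 78.6 CPM for Zbp1-KO (−0.17 ± 0.18). Gdf15, a secreted stress cytokine, had 19.8 and 11.5 CPM for WT, against 3.02 and 4.96 CPM for Zbp1-KO (−1.99 ± 0.42, adjusted p 0.718 by the quasi-likelihood test). Among the other genes with the largest changes, Trib3, an Atf4 target and feedback inhibitor, was at 1.94 ± 1.02 on 3 to 42 counts, Asns, which makes asparagine, at 0.97 ± 0.56, and Cebpb, a transcription factor, at −0.80 ± 0.34. The signs were thus mixed, with 9 of the 18 above 0 and 9 below, and 3 (Gdf15, Cebpb and Slc3a2) had an unadjusted p under 0.05, each on the lower side in Zbp1-KO, where 1.97% of all genes had such a p.

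The tRNAs that the members charge are encoded in the mitochondrial genome, and poly(A) selection captures them poorly, so their reads describe transcripts and fragments and not the charged pool. Of 11 such tRNA genes 8 could be tested, with 0 called by each of the 3 tests. Only mt-Tt had an unadjusted quasi-likelihood p under 0.05, as 3.88% of all genes did. Fold changes were below 0 for 7 of the 8, while 49.4% of all genes had one above 0. The share of reads from the mitochondrial genome was lowest in Zbp1-KO 1 (49.5%, against 57.4% to 61.5% in the other libraries). Its part in these values was not tested. The leucine tRNAs mt-Tl1 (29.8 and 33.4 CPM for WT, 14.7 and 36.4 CPM for Zbp1-KO) and mt-Tl2 (48.0 and 61.3 CPM for WT, 43.0 and 60.8 CPM for Zbp1-KO) both overlapped between genotypes. The threonine tRNA mt-Tt had 26 and 11 counts in WT and 0 in both Zbp1-KO libraries. The glutamate tRNA mt-Te, the tRNA of Ears2 and the most abundant of the 11, had 191 and 204 CPM for WT, against 106 and 188 CPM for Zbp1-KO. Both Zbp1-KO libraries were thus below both WT libraries (16.3% of all genes were), although the WT 1 and Zbp1-KO 2 values nearly met.

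Promoter windows of the 9 genes, from 250 bases before to 50 bases after the RefSeq start on GRCm38.p6, were searched on both strands for letters of factors known to act on mitochondrial or stress-response genes. The windows of Lars2 (chr9:123366677-123366976, plus strand) and of Mars2 (chr1:55236927-55237226, plus strand) are shown because Lars2 carries the difference that chose the list and Mars2 held the most kinds of match among its relatives. Capitals mark matches to NRF1 (GCGCA, any base, GCGC), ETS (CCGGAAG) and YY1 (AA, any base, ATGGCGGC). The search also covered CRE (TGACGTCA), Atf4 composite (TGATGNAA) and CCAAT letters, which are not in capitals.
Lars2: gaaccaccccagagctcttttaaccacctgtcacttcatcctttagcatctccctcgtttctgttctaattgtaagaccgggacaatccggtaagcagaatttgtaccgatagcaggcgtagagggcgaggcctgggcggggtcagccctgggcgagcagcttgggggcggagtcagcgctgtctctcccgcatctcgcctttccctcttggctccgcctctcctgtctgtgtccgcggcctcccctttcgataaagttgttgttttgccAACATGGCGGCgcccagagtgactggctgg
Mars2: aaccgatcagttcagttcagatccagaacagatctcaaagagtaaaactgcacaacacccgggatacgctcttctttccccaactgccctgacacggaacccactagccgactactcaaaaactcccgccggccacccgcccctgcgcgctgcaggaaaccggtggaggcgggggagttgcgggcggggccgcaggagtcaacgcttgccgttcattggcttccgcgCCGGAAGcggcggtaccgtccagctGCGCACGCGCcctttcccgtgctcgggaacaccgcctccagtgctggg

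The Lars2 window held the YY1 letters, found in 0.986% of 32851 promoter windows, and none of the NRF1, ETS, CRE, Atf4 composite or CCAAT letters. The YY1 letters were added to the search after the Lars2 window had been seen. NRF1 letters were in 2 of the 9 windows (Iars2 and Mars2, against 4.6% of all windows) and ETS letters in 2 (Mars2 and Sars2, against 8.86%). CCAAT, in 37.4% of all windows, was in 5 of the 9; these include Tars2, whose RefSeq window (chr3:95754928-95755227, minus strand) lies apart from its GENCODE start at 95760206. Atf4 composite letters, in 3.97% of all windows, were in 0 of the 9 listed genes and in 4 of the 11 cytosolic synthetases that had a window (Aars, Iars, Tars and Yars). A match in these letters is a description of the sequence and not a binding site.

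Sars2, Ears2 and Fars2 start within 200 bases of a protein-coding neighbour on the opposite strand, pairs that were picked after the annotation had been seen. Mrps12, a mitochondrial ribosomal protein gene whose start lies 172 bases from that of Sars2, had a log2 fold change of −0.14 ± 0.36. Ubfd1, 88 bases from Ears2, had −0.06 ± 0.27, and Lyrm4, an iron-sulphur cluster assembly gene 114 bases from Fars2, had −0.08 ± 0.41. No annotated gene overlaps Lars2. Its nearest tested neighbours were Scp2-ps2, a pseudogene 48928 bases before it (0.68 ± 0.41), and Limd1, 16039 bases after it (−0.16 ± 0.21). Exons of Iars2 share 2034 bases with those of Rab3gap2 on the opposite strand, and exons of Fars2, Ears2, Nars2 and Vars2 share 89 to 501 bases with other genes. The study describes strand-specific libraries, but the strand setting of the counting is not given in the sources used here. Reads in the shared bases may be assigned or lost depending on that setting.

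The gene whose profile over the 4 libraries lay nearest to that of Lars2, by Euclidean distance of centred log2 CPM among 8206 genes with a mean of at least 10 CPM, was Gm23935 (distance 0.318). This is a 57-base gene annotated as a miRNA at chr16:11144125-11144181 on the plus strand of GRCm38. Its sequence is printed because its reads had the profile nearest to that of Lars2.
Gm23935: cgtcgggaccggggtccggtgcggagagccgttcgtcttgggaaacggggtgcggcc

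Gm23935 had 8810 and 8303 counts for WT, against 19716 and 19214 counts for Zbp1-KO. Both Zbp1-KO libraries were again above both WT libraries, and the log2 fold change was 1.31 ± 0.21, with an adjusted p of 0.116 by edgeR's quasi-likelihood test, while its exact test and DESeq2 called it. Reads of Gm23935 per read of Lars2 were 2.10 and 2.28 in WT and 1.69 and 1.97 in Zbp1-KO. All 57 bases also occur in Gm24245 and Gm24270, so reads may be shared or dropped among them, and no run of at least 20 bases is shared with Lars2. The next nearest profiles were those of Nlrc5 (1.36 ± 0.26), Abhd17b (1.06 ± 0.32), Cx3cr1 (1.05 ± 0.34) and Ago3 (1.00 ± 0.32), and the measure uses the contrast that chose Lars2.

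Lars2 also shares sequence with a ribosomal-RNA-related gene. Gm15564 and a Lars2 transcript of 3894 bases hold an identical run of 52 bases in the same orientation, at chr9:123462048-123462099 in the 3′ untranslated part of exon 21 of 21, starting 369 bases after the stop codon. Gm15564 had 17 and 53 counts for WT, against 126 and 101 counts for Zbp1-KO (log2 fold change 1.77 ± 0.56, unadjusted p 0.00801 and adjusted p 0.999 by edgeR). Its reads were 0.00406 to 0.0146 per read of Lars2. Of 12 ribosomal-RNA-related and other noncoding RNA genes listed, 7 were tested, and 4 (Gm23935, Gm15564, CT010467.1 and Malat1) had both Zbp1-KO libraries above both WT libraries, as 16.0% of all genes did. The list was drawn up with earlier results known, so nothing is read from that count.

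CT010467.1, an 18S-related gene, had 691 and 550 CPM for WT, against 874 and 881 CPM for Zbp1-KO (0.50 ± 0.19), and Malat1, a nuclear noncoding RNA, had a log2 fold change of 0.43 ± 0.18. Gm26917, also ribosomal-RNA-related, had 404 and 451 CPM for WT, against 458 and 303 CPM for Zbp1-KO (−0.17 ± 0.21), so not every such gene was higher. The count files hold 1 total per gene and not the position of reads along Lars2. The part of such RNAs in the Lars2 counts was not tested.

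**Figure D4:**
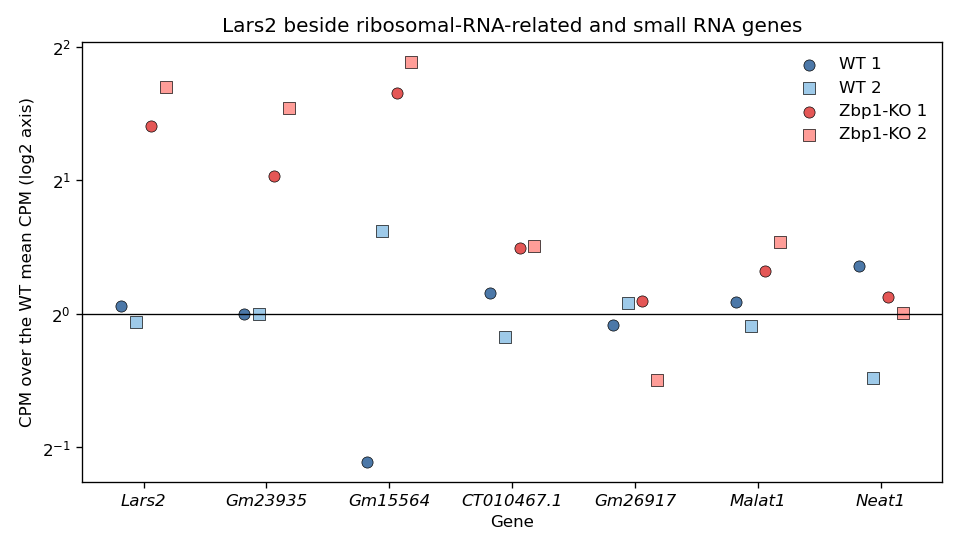
Level of Lars2 and of 6 ribosomal-RNA-related or other noncoding RNA genes in each library, as CPM over the WT mean CPM of the same gene on a log2 axis, with WT libraries in blue and Zbp1-KO libraries in red. Lars2, Gm23935, Gm15564, CT010467.1 and Malat1 have both Zbp1-KO points above both WT points, while Gm26917 and Neat1 overlap.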

How the data were processed

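Per the study's methods and the labels, paired-end reads from poly(A)-selected, strand-specific libraries were aligned to mm10 with HISAT2. Uniquely mapped pairs were counted per gene with featureCounts. Versions, annotation release and the strand setting of the counting are not given in the sources used here. The deposited values are the authors' raw counts per gene, 1 file per library, not normalized. Of 54532 gene identifiers, 54495 matched GENCODE M21 (GRCm38). Genes were kept by filterByExpr (minimum count 10, total 15), scaled by TMM and tested in edgeR 4.0.16 (limma 3.58.1, R 4.3.3) with the two-sided quasi-likelihood F test for genotype and Benjamini-Hochberg adjustment over 14908 genes; a call is an adjusted p under 0.05. SE is the log2 fold change over the root of F. CPM are scaled to the counts of the 14908 genes kept, with TMM factors, so 3 counts equal 0.221 to 0.323 CPM, a floor for counting error only. Alternatives were other scalings, filters and tests (DESeq2 1.42.0), the replicate number as a block, and leaving out each library. The fit was tested on simulated data.

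The members and lists were chosen with earlier results of these data known. Named were the 9 listed genes, Zbp1, synthetases whose genotypes did not overlap and cytosolic partners, in each pathway list the called genes and the 2 largest changes each way (mean of at least 1 CPM), the neighbours of Lars2, its 5 nearest profiles, the noncoding RNA list and the cognate tRNAs; others, such as Atf4 and the genes of the head-to-head pairs, were chosen after their values were seen. Promoter sequences are from RefSeq (9 of 9 listed and 11 of 18 cytosolic genes matched); the Gm23935 sequence is from GENCODE.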

Additional observations from a re-analysis of the deposited data

How the results depend on the processing

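None of the 8 relatives, the 8 remaining mitochondrial synthetases or the 18 cytosolic synthetases was called under any of the 12 alternatives, and the lowest adjusted p of a relative was 0.476. The Lars2 log2 fold change was 1.55 to 1.56 with all libraries and 1.40 to 1.69 with 1 library left out. The median of the relatives was 0.07 to 0.13 with all libraries and −0.13 to 0.40 with 1 left out, that of the remaining mitochondrial synthetases −0.11 to 0.14 and that of the cytosolic synthetases 0.024 to 0.12 with 1 left out. Of 96 values of single relatives, 88 kept their sign and 8 changed it, all with 1 library left out. There Iars2 ran from −0.24 to 0.17, Vars2 from −0.098 to 0.054, Mars2 from −0.43 to 0.93, Fars2 from −0.15 to 0.29 and Sars2 from −0.10 to 0.52. With the longest coding transcript as length, an alternative chosen after seeing the data, Lars2 stayed above each relative in WT, by 5.70-fold (Tars2) to 324-fold (Mars2).

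Over all genes, 2 were called, Lars2 and the fat marker Cfd. Without the filter on low counts 41 were called, 14 by edgeR's exact test, 9 by DESeq2 and 4 without mitochondrially encoded genes. With 1 library left out the number was 0 (WT 1), 20 (WT 2), 8 (Zbp1-KO 1) and 37 (Zbp1-KO 2); the lone library of a genotype was assumed to vary like the other genotype, and the cause was not tested. Zbp1 passed the threshold without the filter (−3.65) in the exact test (−3.67), without Zbp1-KO 1 and without Zbp1-KO 2, and ran from −4.82 to −2.78 with 1 library left out, the lowest being a bound at 3 counts because Zbp1-KO 2 had 0 reads.

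A fit that blocked on the replicate number called 11 genes. Over all genes, same-numbered libraries did not deviate together (correlation 0.00399), so the numbers were not taken to pair the libraries. In the mean over the 8 relatives, however, library 1 was the higher in both genotypes. That mean centred log2 CPM was 0.17 and −0.34 in WT 1 and WT 2, and 0.28 and −0.12 in Zbp1-KO 1 and Zbp1-KO 2. Taken singly, Vars2 was slightly lower in Zbp1-KO 1 (18.5 CPM) than in Zbp1-KO 2 (18.6 CPM). Whether the numbers mark a shared source for these genes was not tested. The block called none of the 8 relatives, the 8 remaining mitochondrial or the 18 cytosolic synthetases.

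Depth limits the relatives with few reads: Mars2 had as few as 19 counts, and a doubling of Mars2, Nars2 or Ears2 lies within its interval.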
